A study of Mus musculus with 61 samples.

Results

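The cytosolic ribosomal proteins are the protein parts of the large and small subunits of the ribosome outside mitochondria. Members were taken by symbol: every gene whose symbol starts with Rpl or Rps followed by a digit, together with Rpsa, Rplp0, Rplp1 and Rplp2, without the S6 kinases (Rps6k) and without pseudogenes. This gave 80 of the 15149 genes in the table. Of these, 74 are core ribosomal proteins, 43 of the large and 31 of the small subunit. A further 5 are second copies of a core gene (Rpl7l1, Rpl22l1, Rpl36al, Rps27l and Rps4y2), and 1 (Rps19bp1) encodes a binding partner of Rps19 and no ribosomal protein.

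RNA was sequenced from dissociated retinas of 2 mouse strains. DBA/2J mice carry a mutant Gpnmb, lose iris pigment and develop high eye pressure and glaucoma with age, and D2-Gpnmb+ mice share the DBA/2J background but have a functional Gpnmb. On water, 10 libraries were from DBA/2J and 10 from D2-Gpnmb+ at 4 months, and 25 from DBA/2J and 9 from D2-Gpnmb+ at 9 months. Another 7 libraries were from DBA/2J of 9 months given nicotinamide, from which cells make NAD, at a daily dose of 500 mg per kg. Cells were sorted for Thy1.2 after removal of cells stained for GFAP, Cd45.2, Cd34, Cd11b or Cd11c. The labels call them retinal ganglion cells, and the nerves of these eyes showed no axon loss. The labels do not say whether each library is a different animal, and the p-values therefore speak only of spread from library to library, which may be technical.

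Most ribosomal proteins are made in nearly equal amounts because 1 copy of each is built into a ribosome, and their mRNAs are among the most abundant of a growing cell. Most of these mRNAs start with a run of pyrimidines, the terminal oligopyrimidine (TOP) motif, through which the kinase complex mTORC1 sets their translation. Their promoters often lack a TATA box and hold sites for factors of the ETS family, whose core is GGAA. In neurons the mRNAs are also carried into axons and dendrites.

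To show the start of such genes, 6 promoters are printed. Rps21 and Rps23 passed the main test between strains at 4 months. Rpl41 passed that for a strain difference in the change with age. None of these passed in every fit described below. Rpl15 followed the family least of the core genes over all libraries, and Rpl38 and Rplp2 show the pyrimidine run at the start. Each promoter runs from 70 bases before the start of transcription to 30 bases from it, from RefSeq (GRCm38.p6), 5′ to 3′ on the strand of the gene. Capitals mark CTTTC, as a sample of a pyrimidine run, and CGGAAG, which holds the ETS core, on either strand (GAAAG and CTTCCG on the opposite one).
Rps21 (1 of 2 listed starts, chr2:180257309-180257408, plus strand): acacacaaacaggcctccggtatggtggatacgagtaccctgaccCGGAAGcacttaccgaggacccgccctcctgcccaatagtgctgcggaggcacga
Rps23 (chr13:90923052-90923151, plus strand): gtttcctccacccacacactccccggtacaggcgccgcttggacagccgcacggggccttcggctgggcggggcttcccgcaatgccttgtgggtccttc
Rpl41 (chr10:128549139-128549238, minus strand): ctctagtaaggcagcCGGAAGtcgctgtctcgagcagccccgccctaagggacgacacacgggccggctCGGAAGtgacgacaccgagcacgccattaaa
Rpl15 (chr14:18270957-18271056, minus strand): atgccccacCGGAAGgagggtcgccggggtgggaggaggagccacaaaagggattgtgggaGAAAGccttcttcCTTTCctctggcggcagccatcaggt
Rpl38 (chr11:114668510-114668609, plus strand): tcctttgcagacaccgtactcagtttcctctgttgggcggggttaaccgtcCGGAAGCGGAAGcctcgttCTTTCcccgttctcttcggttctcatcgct
Rplp2 (chr7:141447581-141447680, plus strand): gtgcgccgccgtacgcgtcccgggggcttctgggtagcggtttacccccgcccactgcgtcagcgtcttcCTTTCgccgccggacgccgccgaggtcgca

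RefSeq listed 70 promoters of 60 members among 32851 promoters in all. In the 30 bases around the start, CTTTC on the gene's own strand stood in 16 of the 70 (22.9%) and in 1330 of all promoters (4.05%). Over both strands these shares were 25.7% and 7.57%. CGGAAG stood on either strand of the whole 300-base promoter in 43 of the 70 (61.4%) and in 16.9% of all. TATAAA, the letters of a TATA box, stood on either strand in 7 of the 70 and in 13.6% of all. GGGCGG, the letters of a GC box, stood in 62.9% of the members' promoters and in 35.7% of all. The letters were chosen after the sequences had been looked at, members with several starts count more than once, and the shares are descriptions.

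Values are deposited normalised read counts, on a scale near reads per 1000000. All values of the table were whole reads times 1 factor per library, and libraries held 5133114 to 19501444 reads (median 9730486). By order in the table the libraries fall into 3 stretches, called blocks 1, 2 and 3 here, of 10, 18 and 33 libraries. At 9 months on water, DBA/2J has 6 libraries in block 1 and 16 in block 2, and D2-Gpnmb+ has 4 and 2. Block 3 holds all 4-month and nicotinamide libraries with 3 libraries from each strain at 9 months on water. The division was made after expression values had been seen, its counts per group equal those of 3 series of sample numbers in the labels, and no label says what they mean. Markers of the labelled cell type were low: 13 of 16 ganglion cell markers were in the table, with a summed value of 36.5 to 287 per library, against 970 to 80888 for 15 rod markers. The sums were 2819 to 11592 for 12 bipolar markers and 379 to 16050 for 13 Müller glia and astrocyte markers. In block 1 of D2-Gpnmb+ the glial sum (11196 to 16050) lay above the rod sum (970 to 8197). The members' RNA is therefore that of a mixture with much RNA of rods and of other cells. Fewer cells of a type and less RNA per cell cannot be told apart in it.

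The 80 members together took 0.236% to 0.823% of the summed values of a library (median 0.423%). Per kilobase of exon, Rpl10a was the member with the highest mean over the 61 libraries (177), with 67 of the 14135 genes of known length above it. Among those next to it were Rps15 (149), Rpl4 (144) and Rps6 (144). At the other end, the second copies Rps27l (6.47 per kilobase) and Rpl7l1 (4.03) lay below nearly all core genes, as did Rps20 (4.67) among the core. Lengths are those of all annotated exons of a gene merged, and levels per kilobase depend on them. Rps20 (3706 bases) and Rps21 (394 bases, 43.4 per kilobase) had like mean values of 17.3 and 17.1. The core gene Rps27 was listed at a mean value of 0.285 and had reads in 49 of 61 libraries. Ribosomal protein genes have many near-identical pseudogenes, and counting can split or drop their reads, so single levels are uncertain. Rps27 was left out of the family mean, the mean of log2(value + 1) over the other 73 core genes.

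The members varied together. Across the 61 libraries, the first principal component held 77.0% of the variance of the members, and 47.0% within the 33 libraries of block 3. The correlation of a core gene with the mean of the others had a median of 0.886 over 61 libraries, and 0.674 in block 3. These libraries share blocks and depth, and the correlations are descriptions. Rps24 (r = 0.964) and Rpl37a (0.961) were among the members that followed the others most closely, and 30 members had an r over 0.9. Of 15069 genes outside the family, 9 did, among them Cox4i1 (0.944), a subunit of cytochrome c oxidase, and Pfdn5 (0.938), a subunit of the chaperone prefoldin. The levels of Rpl6, Rpl37 and Rps24 relative to the family mean varied least between libraries (SD 0.177, 0.183 and 0.185 on the log2 scale). Rpl15 (0.693), Rps4y2 (0.678) and Rpl7l1 (0.579) varied most.

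**Figure D1:**
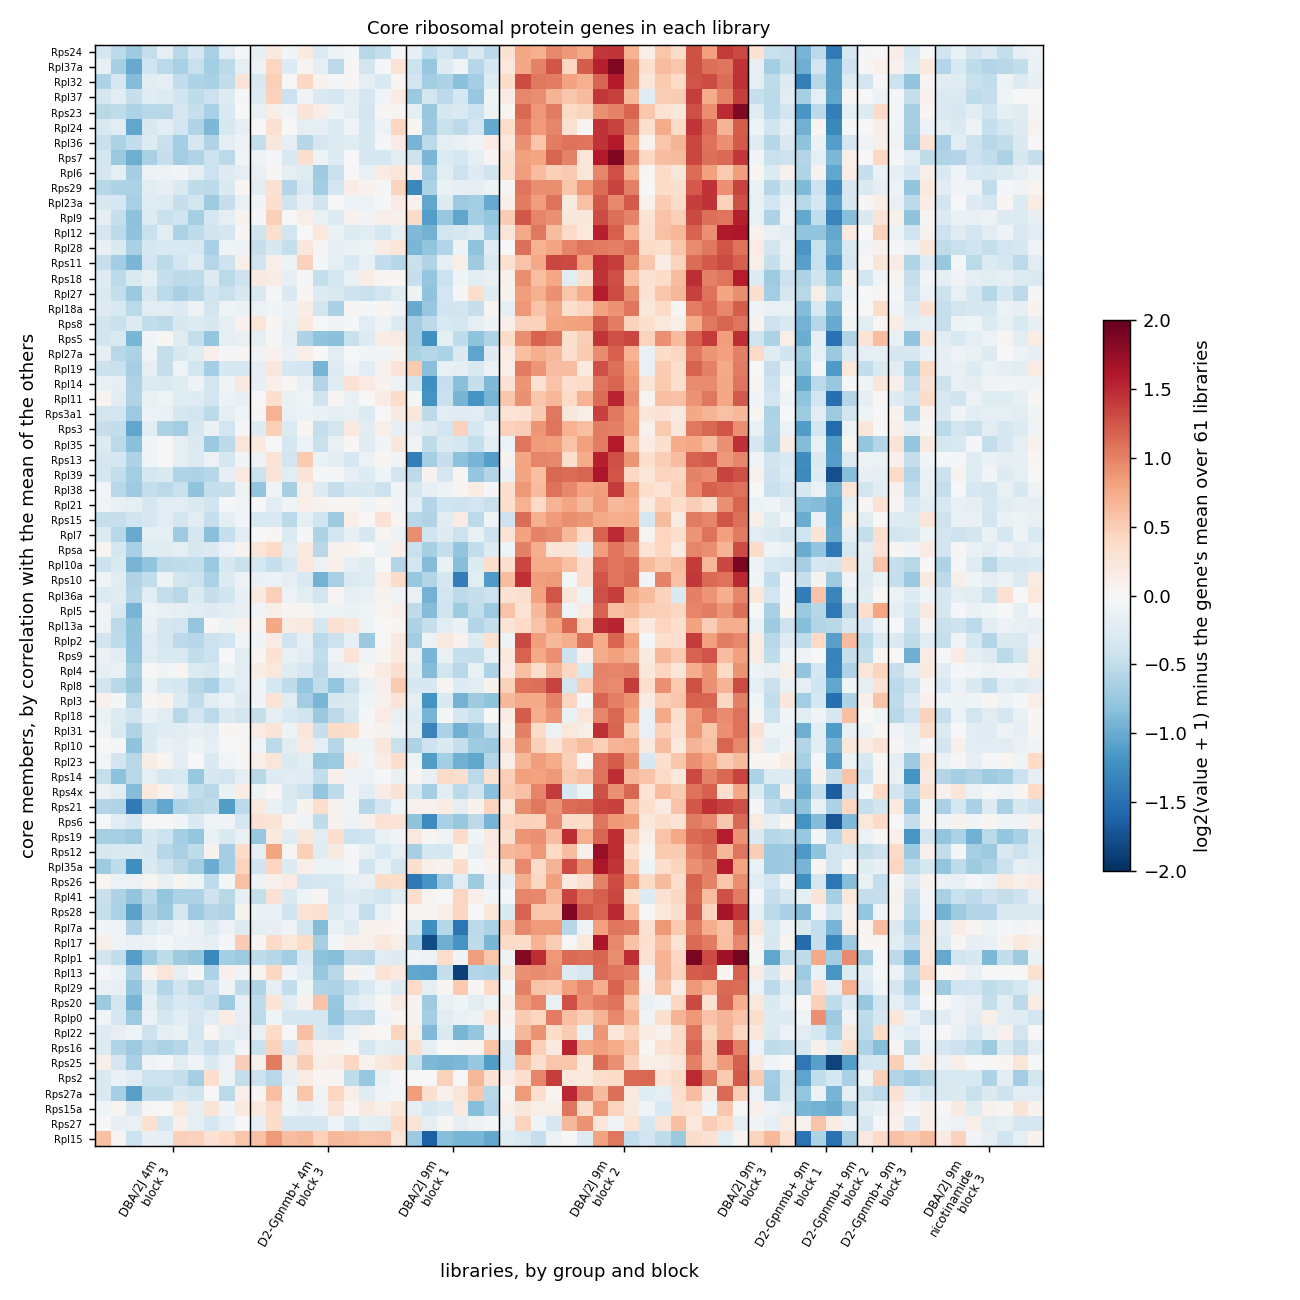
Each row is 1 of 73 core genes, in order of its correlation with the mean of the others, and each column 1 of the 61 libraries, sorted by group and block. Colour gives log2(value + 1) minus the gene's own mean: nearly all rows are red in the 16 block 2 libraries of DBA/2J at 9 months and mostly blue or pale elsewhere, and Rpl15 (r = 0.245), the lowest row, is not red throughout block 2.

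At 4 months the family mean was 5.28 ± 0.158 (SD, n = 10) in DBA/2J, with a lowest library of 4.94, a median of 5.30 and a highest of 5.56. In D2-Gpnmb+ it was 5.52 ± 0.142 (n = 10), from 5.31 over a median of 5.497 to 5.78. The groups overlapped. At 9 months DBA/2J on water spread far wider, 5.97 ± 0.587 (n = 25). This spread followed the blocks: the 6 libraries of block 1 lay between 4.97 and 5.33, the 3 of block 3 at 5.20, 5.42 and 5.62, and the 16 of block 2 between 5.79 and 6.77 (median 6.40). The lowest of these 16 (5.791) lay just above the highest of the other 45 libraries (5.782). D2-Gpnmb+ at 9 months had 5.30 ± 0.371 (n = 9), and its 2 libraries of block 2, at 5.42 and 5.66, lay below all 16 of DBA/2J in that block. With nicotinamide the mean was 5.39 ± 0.0992 (n = 7), from 5.26 to 5.56.

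**Figure D2:**
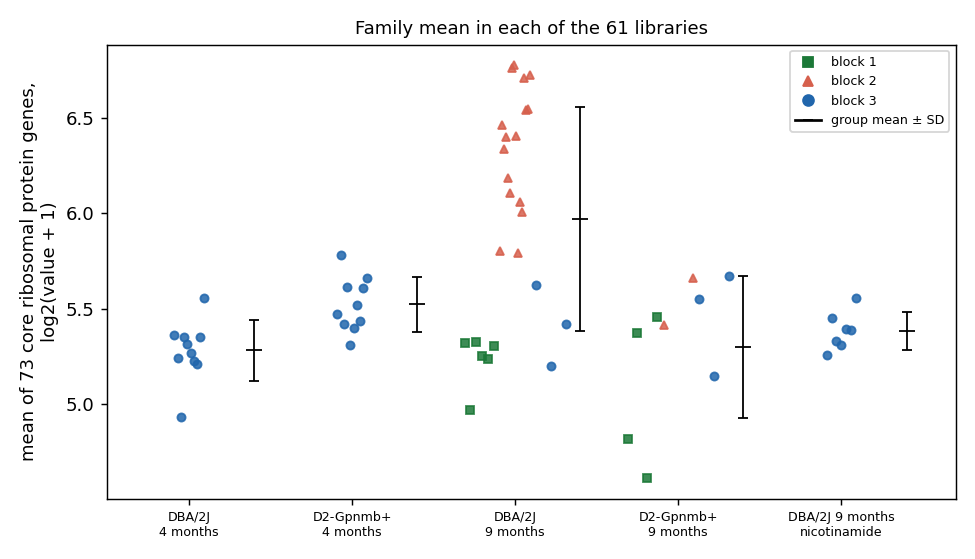
Points give the mean of log2(value + 1) over 73 core genes in each library, by group, with the marker and colour of the block. The bar beside each group is its mean ± SD: only the block 2 libraries of DBA/2J at 9 months (5.79 to 6.77) lie above all others.

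The 16 block 2 libraries of DBA/2J also differed in markers and depth, with ranges that overlapped those of other libraries. Their summed level of 10 microglia and macrophage markers, all 10 of which were in the table, was 6.73 to 231 (median 68.7), against 0.348 to 8.09 (median 1.62) in the other 45. Of the 10 markers, 7 were at 0 in most of those 45 libraries, from Cx3cr1 (31) to Tyrobp (41) and C1qa (42). Ptprc was at 0 in 16, Csf1r in 5 and P2ry12 in 1, the last with values up to 5.96. The sort was set to remove cells with Cd45.2 (Ptprc) and Cd11b (Itgam). Their rod sum was 3718 to 80888 (median 26734), against 970 to 32795 (median 8691) elsewhere, and they held 6264137 to 19501444 reads, against 5133114 to 14961078. The 2 D2-Gpnmb+ libraries of block 2, with family means of 5.42 and 5.66, had rod sums of 11900 and 32795. Within the 16, the library with the lowest microglia sum (6.73) had a family mean of 6.71, and the one with the highest (231) had 6.76. The library with the lowest rod sum (3718) had a family mean of 6.11, and the one with the highest (80888) had 6.73. The least deep had 5.80 and the deepest 6.77. The part of these features in the family's level was not tested.

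The first comparison set DBA/2J against D2-Gpnmb+ at 4 months, the younger age. The members lay slightly lower in DBA/2J: the median log2 difference was −0.24 over 78 tested members, 73 of them negative, against 0.01 over all 12804 genes tested. At an adjusted p under 0.05 (limma on log2(value + 1), Benjamini-Hochberg over all genes, as throughout), 0 members were higher and 2 lower, where 0.25% of all genes were called in either direction and 0.148% lower. Before adjustment, 43 of the 78 members and 1726 of all genes had a p under 0.05. The large subunit had a median of −0.22 over 43 genes and the small subunit −0.28 over 30. Marker lists shifted in this contrast too. Medians were −0.66 for 10 cone (1 called lower), −0.50 for 15 rod, 0.52 for 10 ganglion cell and 0.57 for 9 amacrine and horizontal cell markers. The other cell lists tested lay between −0.20 (vessel) and 0.10 (bipolar). Their part in the members' difference was not tested.

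Both members that fell belong to the small subunit. Rps21 (chromosome 2, 180257377 to 180258445, plus strand, GRCm38) had values of 5.00 to 10.2 in DBA/2J (median 9.49) and 9.79 to 19.4 in D2-Gpnmb+ (median 14.03). The groups overlapped only at their edges. It was lower by a log2 difference of −0.69 ± 0.138 (SE, adjusted p = 0.0271 by limma). Rps23 (chromosome 13, 90922958 to 90924950, plus strand), which lies at the decoding centre, had 50.1 to 78.3 in DBA/2J (median 54.5) and 60.9 to 94.6 in D2-Gpnmb+ (median 77.4). Its 2 groups overlapped more, and its log2 difference was −0.43 ± 0.089 (adjusted p = 0.0353). Over 20 fits that each left out 1 library, Rps21 passed in 15 (adjusted p up to 0.0583) and Rps23 in 8 (up to 0.0913). All 20 libraries are of block 3. On the recovered reads, edgeR called 2 members lower (0.187% of all genes) and DESeq2 10 (0.945%). With values scaled to total reads, limma called 0 members and 0.157% of all genes. Before adjustment, 4 of 78 members and 3649 of 12723 genes had a p under 0.05. The members' median became 0.01. That scaling moved the median of all genes to 0.24, so relative to all genes the members stood at −0.23, against −0.25 before. Leaving out 1 library at a time gave 0 to 10 calls, 0 without DBA/2J library 3 or 4 or D2-Gpnmb+ library 4, 6 or 10, and 10 without DBA/2J library 10.

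Age in DBA/2J, 9 months against 4, gave the broadest change. Of 79 tested members 55 were higher and 0 lower at 9 months, where 9.25% of all 13587 genes tested were called higher and 22.4% called in either direction. The median log2 difference was 0.70 for the members and 0.02 for all genes. By subunit, 29 of 43 tested large and 23 of 30 small subunit genes rose, with 2 second copies and Rps19bp1. All 10 of the 4-month libraries are in block 3 and 22 of the 25 at 9 months are not, so age and block cannot be fully told apart. Marker lists moved with the same contrast: 8 of 9 tested microglia and macrophage markers (median 1.49), 6 of 15 rod markers (1.05) and 6 of 13 Müller glia and astrocyte markers (0.80) rose, and 4 of 11 ganglion cell (−0.75) and 7 of 9 amacrine and horizontal cell (−2.26), 4 of 12 bipolar (−0.29) and 2 of 10 cone markers (−0.30) fell. Of vessel and of pigment cell markers, 1 of 9 and 1 of 3 rose. Their part in the members' rise was not tested. Most microglia and macrophage markers reached the filter through the block 2 libraries, where they were high. Within block 3 only 1 of the 10 was tested. The direction of their change was thus largely set by the filter.

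The largest rises were those of Rplp1, Rps21 and Rps28. Rplp1 (chromosome 9, 61913284 to 61914542, minus strand) encodes an acidic protein of the stalk, which recruits elongation factors. It had values of 9.69 to 19.4 at 4 months (median 14.9). At 9 months it had 23.5 to 45.7 in block 1 (median 28.4), 23.5 to 97.7 in block 2 (median 57.1), and 24.4, 11.8 and 17.8 in block 3. Blocks 1 and 2 thus lay wholly above the 4-month libraries, and 2 of the 3 libraries of block 3 lay within their range. Its log2 difference was 1.46 ± 0.245 (adjusted p = 0.000145). Rps21 rose by 1.36 ± 0.200 (adjusted p = 4.25e-05), with 13.2 to 20.7 in block 1, 16.98 to 43.0 in block 2 and 14.7, 10.3 and 9.62 in block 3. Rps28 rose by 1.10 ± 0.219 (adjusted p = 0.000629), from a mean of 8.99 ± 2.19 (SD, n = 10) to 22.5 ± 11.9 (n = 25). These 3 passed in each of the 35 fits that left out 1 library.

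The rise of most members was not seen without block 2. Within block 3, 0 of 79 members were called by limma, edgeR or DESeq2 (0.263% of all genes called by limma), with a median of 0.14 and 67 members positive. Before adjustment, 3 of the 79 members and 1465 of 13670 genes had a p under 0.05 by limma. That fit holds only 3 libraries at 9 months. With block as a covariate, the difference rests on the same block 3 libraries, since no 4-month library lies elsewhere. The members' median was again 0.14, so that fit is no separate check. There 0 members and 0.0589% of all genes were called. Before adjustment, 0 members and 675 of 13587 genes had a p under 0.05 by limma. Without block 2, 7 members were higher and 4 lower, a smaller share than the 21.9% of all genes called, with a median of 0.03. That fit has 6 libraries of block 1 and 3 of block 3 at 9 months, so it mostly sets block 1 against block 3. The 7 that rose there included Rplp1 (0.74), Rps21 (0.73), Rpl41 (0.56) and Rps28 (0.52), and those that fell included Rpl15 (−0.72), Rpl17 (−0.68) and Rps13 (−0.45), named after their values were seen.

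**Figure D3:**
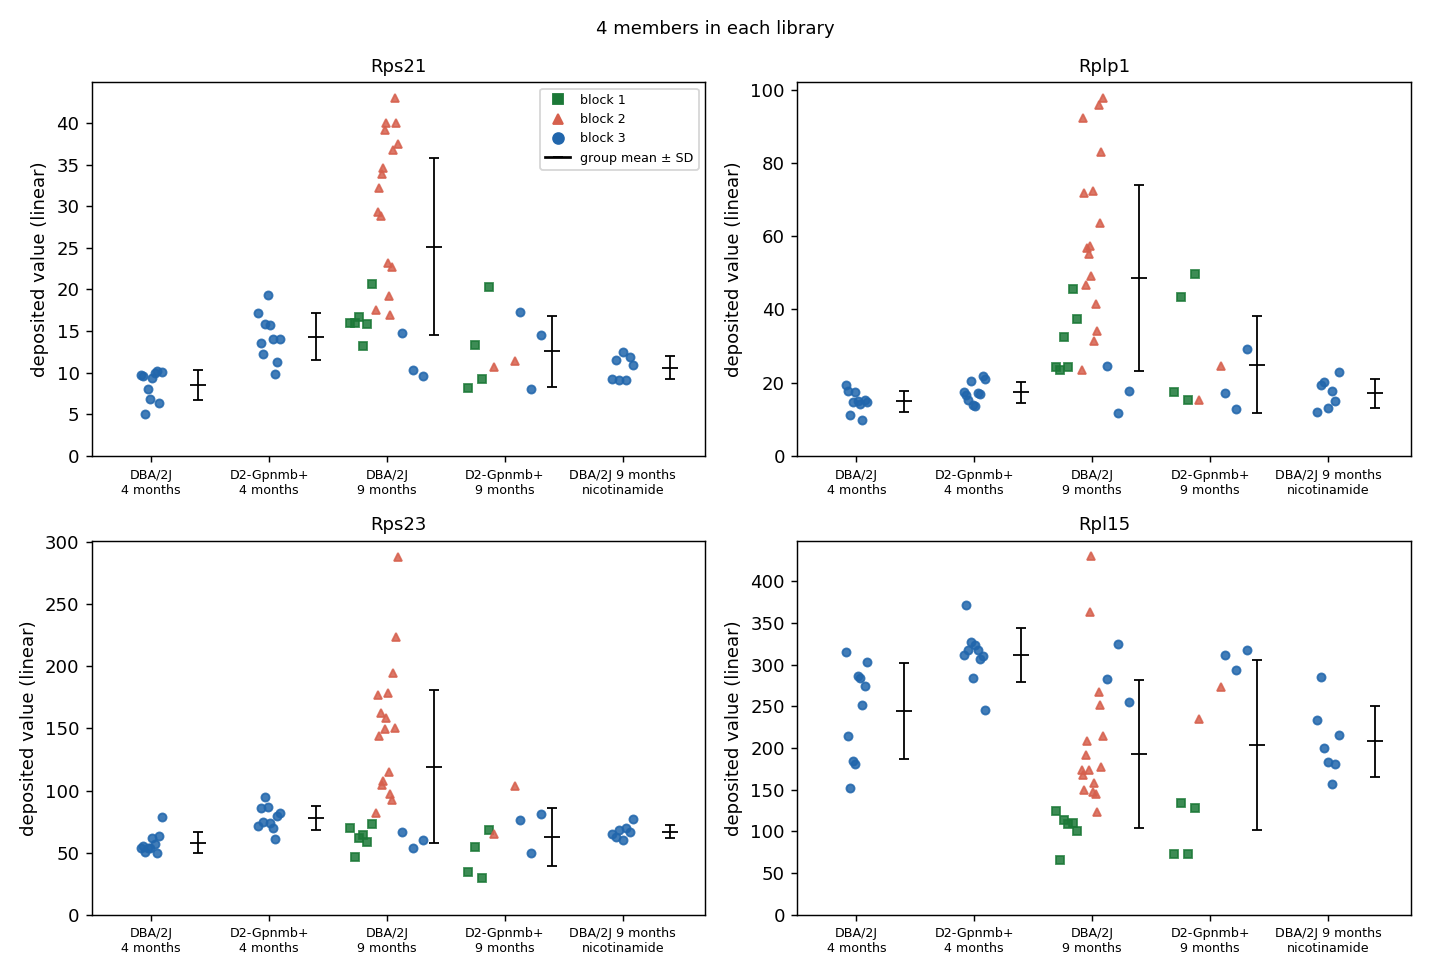
Points are deposited normalised values per library for Rps21, Rplp1, Rps23 and Rpl15, by group, with the marker and colour of the block. In Rps21, Rplp1 and Rps23 the block 2 libraries of DBA/2J at 9 months reach highest (43.0, 97.7 and 288), and in Rpl15 the block 1 libraries lie lowest.

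In D2-Gpnmb+ the same comparison of ages called 0 of 78 members by limma (0.0232% of all genes called), while edgeR called 3 lower (1.34% of all genes) and DESeq2 6 (3.03%). Before adjustment, 17 of the 78 members and 3917 of all 12910 genes had a p under 0.05 by limma. The members' median was −0.21, with 12 members positive. Rps25, of the small subunit, had 71.4 to 141 at 4 months (median 78.1). At 9 months it had 18.03 to 31.3 in the 4 libraries of block 1, 51.6 and 53.0 in block 2 and 62.5 to 94.5 in block 3, so that only block 3 reached into the 4-month range. Its log2 difference was −0.94 ± 0.242 (adjusted p = 0.0741). Rpl13a, which also takes part in silencing of inflammatory mRNAs, differed by −0.48 ± 0.140 (adjusted p = 0.0750). Within block 3 the members' median was −0.05. Without block 2, 12 members were lower, where 7.78% of all genes were called lower. That fit has 4 libraries of block 1 and 3 of block 3 at 9 months, against 4-month libraries of block 3 alone. Leaving out 1 library gave 0 to 9 calls, with 6, 9, 3 and 8 without D2-Gpnmb+ libraries 9, 13, 14 and 15 of 9 months. Over all libraries, medians of marker lists were 1.12 for Müller glia and astrocyte and 0.52 for vessel markers. They were −1.11 for amacrine and horizontal cell, −1.07 for cone and −0.75 for rod markers. The other lists tested lay between −0.55 (ganglion cell) and −0.18 (pigment cell). Their part was not tested.

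Between the strains at 9 months the members lay higher in DBA/2J, with a median log2 difference of 0.66 and 78 of 79 positive, but limma called 0 (0.0218% of all 13755 genes called). Before adjustment, 68 of the 79 members and 1812 of all genes had a p under 0.05 by limma. edgeR called 1 higher, Rps2 (0.0218% of all genes), and DESeq2 42 (1.08%). Rps2, a small subunit protein at the mRNA entry side, had 68.0 to 110 in block 1, 76.6 to 196 in block 2 and 41.8, 53.5 and 99.1 in block 3 of DBA/2J, against 32.7 to 53.5, 64.4 and 96.2, and 42.0 to 45.9 in the same blocks of D2-Gpnmb+. Only in block 1 were the strains apart. Its log2 difference was 0.93 ± 0.193 (adjusted p = 0.0636 by limma), and that of Rps21 was 0.88 ± 0.219 (adjusted p = 0.0987). Within block 1 limma called Rps2 alone among the members (4.56% of all genes called higher). The members' median was 0.20 within block 1, 0.82 within block 2 and −0.06 within block 3. In block 2 it rests on 2 libraries of D2-Gpnmb+. With block as a covariate it was 0.31. Over all libraries, medians of marker lists were 1.46 for microglia and macrophage, 1.23 for rod and −0.62 for amacrine and horizontal cell markers. The other cell lists lay between −0.45 (vessel) and 0.17 (bipolar). Most microglia markers reached the filter through block 2 of DBA/2J. The part of these shifts in the members' difference was not tested.

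The difference between the 2 strains in their change with age was tested as an interaction. Of 79 members 7 had a larger change in DBA/2J and 0 a smaller one, where 0.127% of all 14150 genes tested were called in that direction and 0.375% in either. The median was 0.91, against −0.04 over all genes. The 7 were 5 of the small subunit, Rps16, Rps19, Rps21, Rps27a and Rps28, and 2 of the large, Rpl32 and Rpl41. Rps21 had the largest value, 1.58 ± 0.290 (adjusted p = 0.00474), followed by Rpl32 with 1.41 and Rps28 with 1.27 (both adjusted p = 0.0464). Rps21 was also called for strain at 4 months and for age in DBA/2J. These calls share the 10 DBA/2J libraries of 4 months and are not separate results. In the interaction, Rps21 passed in each of the 54 fits without 1 library, Rpl32 in 19 and Rps28 in 20. The number of members called ranged there from 1 to 26, and 40 of the fits called fewer than 7. Calls rose to between 13 and 26 without DBA/2J library 1, 2, 5, 6, 27 or 28 of 9 months or 10 of 4 months, or without D2-Gpnmb+ library 9 or 13 of 9 months. Within block 3, 0 members were called by limma, edgeR or DESeq2 (0.0774% of all genes called by limma), with a median of 0.18. Before adjustment, 0 members and 1179 of 14219 genes had a p under 0.05 by limma. By edgeR these were 2 members and 1130 genes, and by DESeq2 2 and 1262. Without block 2, only Rps21 among the members was called, at 0.91 (adjusted p = 0.0481, 0.801% of all genes called higher), as it was with block as a covariate, at 1.25 (adjusted p = 0.0131, 0.0353%). Without block 1, 37 members were called (0.443%). DESeq2 called 44 (1.12%), and limma on values scaled to total reads 4 (0.0706%). Over all libraries, medians of marker lists were 1.70 for rod, 1.42 for microglia and macrophage and 0.64 for cone markers. For amacrine and horizontal cell markers it was −1.14 (1 called lower). The other cell lists lay between −0.60 (ganglion cell) and 0.07 (bipolar). Most microglia markers reached the filter through block 2 of DBA/2J. The part of these shifts was not tested.

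Nicotinamide was compared with water in DBA/2J at 9 months. Of 79 members 29 were lower and 0 higher with nicotinamide, where 5.34% of all 13925 genes tested were called lower and 15.1% in either direction. The median log2 difference was −0.55, against −0.03 over all genes. Of the marker lists, all 9 tested amacrine and horizontal cell (median 2.56), 8 of 10 cone (1.01), 4 of 12 ganglion cell (0.80) and 2 of 12 bipolar markers (0.12) rose. Those that fell were 3 of 9 microglia and macrophage (−1.45), 4 of 13 Müller glia and astrocyte (−0.91), 2 of 9 vessel (−0.86) and 1 of 3 pigment cell markers, and 0 of 15 rod markers passed (−0.31). Their part in the result was not tested. Here too most microglia and macrophage markers reached the filter through block 2 of the water libraries, which largely set the direction of their change. Within block 3, 0 of the 10 were tested. Of the 29 members, 15 belong to the large and 13 to the small subunit, and 1 is Rps19bp1. Rplp1 fell by 1.29 (SE 0.291, adjusted p = 0.00292), with 11.9 to 22.9 in the 7 treated libraries (median 17.7). Rps19 fell by 1.21 (SE 0.228, adjusted p = 0.000618), with 7.91 to 13.1 in treated libraries (median 10.04). On water it had 15.5 to 21.5 in block 1, 18.1 to 50.5 in block 2 and 10.7 to 13.2 in block 3. Rps28 fell by 1.06 (SE 0.256, adjusted p = 0.00469).

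All 7 treated libraries are in block 3, and against the 3 water libraries of that block the difference was not seen. There 0 members were called by limma, edgeR or DESeq2, limma called 1 of 13352 genes (0.00749%), and the members' median was −0.03 with 31 positive. Before adjustment, 2 of the 79 members and 2242 of all genes had a p under 0.05 by limma. Without block 2 the median was 0.08, with 6 members higher and 3 lower (14.2% of all genes called). The water libraries of that fit are 6 of block 1 and 3 of block 3. Without block 1, 69 members were lower (5.7% of all genes). With block as a covariate, the difference rests on the same block 3 libraries, and the members' median was again −0.03, so that fit is no separate check. There 0 members and 0.0% of all genes were called. Before adjustment, 0 members and 736 of 13925 genes had a p under 0.05 by limma. edgeR called 44 lower (8.93%) and DESeq2 50 (12.6%). Leaving out 1 library gave 18 to 35 calls, with 19, 18 and 19 without treated libraries 1, 3 and 4. Treatment and block cannot be told apart in the pooled comparison beyond these 3 libraries.

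**Figure D4:**
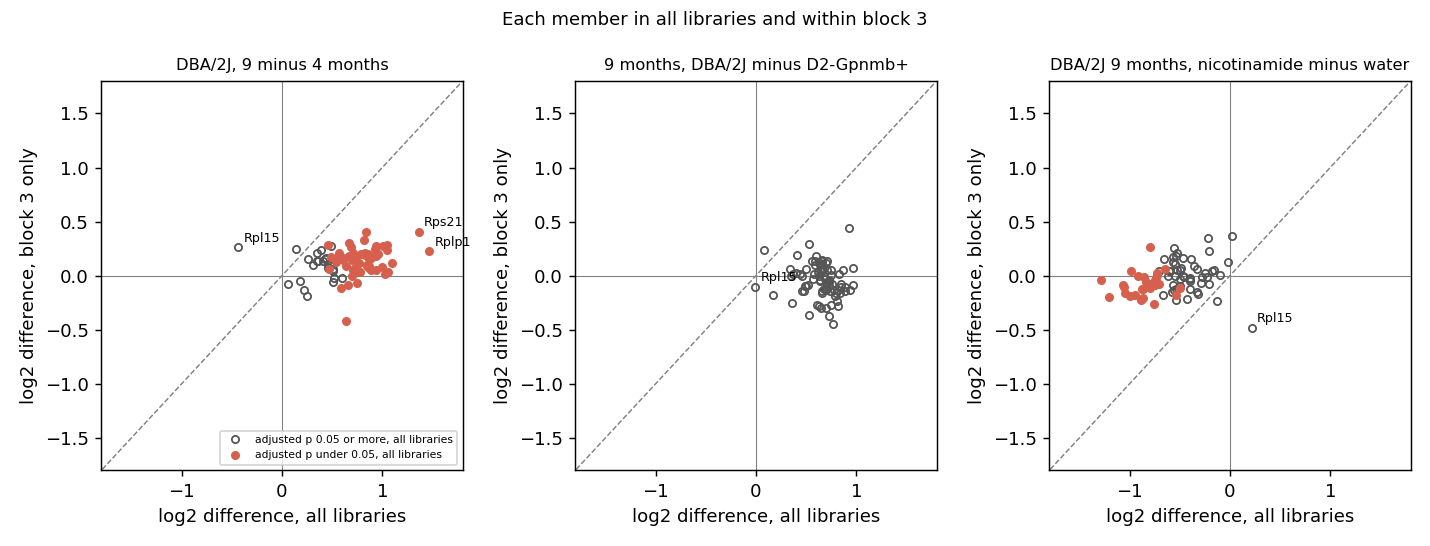
Each point is a member, with its log2 difference over all libraries on the horizontal axis and within block 3 on the vertical axis, for age in DBA/2J, strain at 9 months and nicotinamide. The pooled medians (0.70, 0.66 and −0.55) lie far from 0 and those within block 3 (0.14, −0.06 and −0.03) near it.

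By role, all 3 stalk proteins passed both with age in DBA/2J and with nicotinamide over all libraries. So did 55 of 79 members with age and 29 of 79 with nicotinamide, where 9.25% of all genes were called higher and 5.34% lower. Within block 3 no member was called in either comparison. Rplp0, the scaffold of the stalk, and its partner Rplp2 rose with age in DBA/2J by 0.56 (adjusted p = 0.00605) and 0.86 (adjusted p = 0.00113), and fell with nicotinamide by 0.50 and 0.75. At 4 months Rplp0 was among the few members with a positive difference between strains (0.11), where Rplp1 (−0.22) and Rplp2 (−0.20) were negative, and none of the 3 passed. Rps6, whose phosphorylation by S6 kinase is a common readout of mTORC1, did not pass in any comparison: its log2 difference was 0.35 with age in DBA/2J (adjusted p = 0.222) and −0.23 with nicotinamide. It had 48.7 to 81.7 in block 1 of DBA/2J at 9 months, 136 to 257 in block 2 and 102 to 131 in block 3, against 92.5 to 119 at 4 months, so blocks 1 and 2 lay on opposite sides of the younger libraries. Rpl5 and Rpl11, which with 5S rRNA bind Mdm2 when assembly of ribosomes fails, each had 0.51 with age in DBA/2J (adjusted p = 0.0623 and 0.115). Rps19, the gene most often mutated in Diamond-Blackfan anaemia, rose by 1.03 (adjusted p = 0.000389).

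Among the second copies, Rpl22l1 (0.45, adjusted p = 0.0419) and Rpl36al (0.49, adjusted p = 0.0460) rose with age in DBA/2J, but without block 2 Rpl36al had −0.059. Rps27l (0.60, adjusted p = 0.0617), Rps4y2 (0.21) and Rpl7l1 (0.14) did not pass. None of the 5 was called in another comparison by limma over all libraries. Rps19bp1 rose with age in DBA/2J by 0.64 (adjusted p = 0.0163), but within block 3 its difference was −0.42.

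Rpl15 (chromosome 14, 18267823 to 18271391, minus strand) had the lowest r of the core genes with the mean of the others over 61 libraries, 0.245. Within block 3 its r was 0.445 and within block 2 of DBA/2J 0.694, nearer to the medians of 0.674 and 0.787 of the core genes. In block 3, Rps2 was lowest (0.081) and Rplp0 had 0.299. It had 153 to 315 in DBA/2J at 4 months (median 263). At 9 months it had 65.9 to 125 in block 1 (median 109), 123 to 430 in block 2 (median 176), and 283, 325 and 255 in block 3. In D2-Gpnmb+ at 9 months block 1 was low as well, at 73.2, 134, 72.4 and 128, against 293 to 318 in block 3. It was thus low in block 1 in both strains, and was the only tested member with a negative difference with age in DBA/2J (−0.44, adjusted p = 0.116). With nicotinamide it had 157 to 285 (median 200).

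The size of the shift of block 2 varied with merged exon length. Between blocks 2 and 3 of DBA/2J at 9 months, 72 of the 73 core genes of the family mean were higher in block 2, from −0.54 (Rpl15) to 1.65, with a median of 0.98. Members are short, with a median exon length of 977 bases against 3785 for all genes. Spearman's rho of length with this difference was −0.49 over these 73 members and −0.26 over 9407 genes with a mean of at least 5, given as descriptions across genes. Among genes of up to 1000 bases, the 37 members had a median of 1.06 and 218 others 0.53, and from 1000 to 2000 bases 27 members had 0.94 and 1282 others 0.18. Other short genes thus moved the same way by less, and the part of length in the members' rise was not tested.

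**Figure D5:**
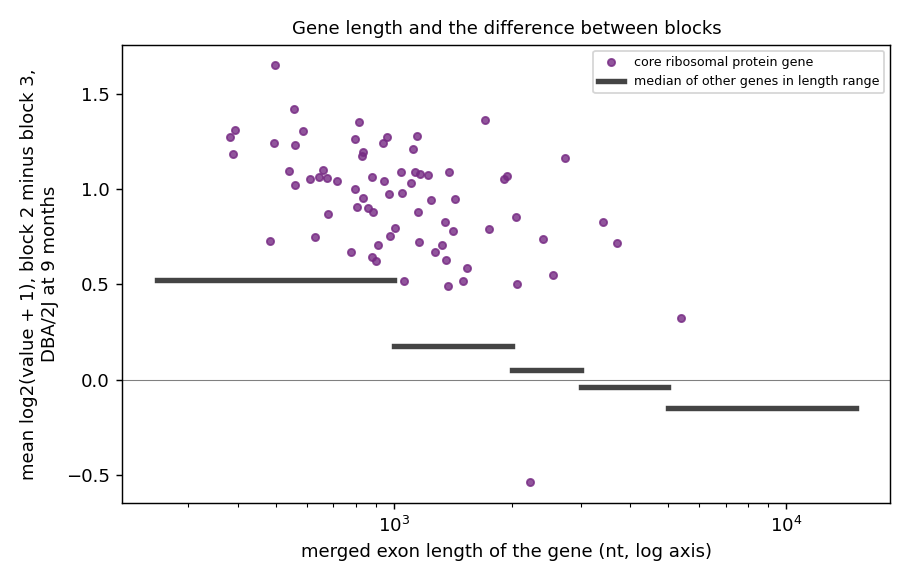
Horizontal axis, exon length on a log scale; vertical axis, mean log2 value in block 2 minus block 3 of DBA/2J at 9 months. Points are 73 members and bars the medians of other genes by length, which fall from 0.53 up to 1000 bases to −0.15 above 5000, below the members' medians at each length.

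Genes of translation outside the family were counted from lists. Genes of the ribosome outside the naming rule that rose with age in DBA/2J included Fau (1.01) and Gnb2l1 (0.87). Fau encodes a small subunit protein as a fusion, and Gnb2l1 the scaffold RACK1. Both lay above the members' median of 0.70. The lists were drawn up with earlier results known, and their counts stand beside 9.25% of all genes called higher and 22.4% in either direction with age, and 5.34% lower and 15.1% in either direction with nicotinamide. Of 22 elongation factors and other TOP genes 9 rose and 1 fell (median 0.31), among them Eef1a1, which brings aminoacyl-tRNA to the ribosome (0.45, adjusted p = 0.0213). Of 32 initiation factors 4 rose and 5 fell (median 0.02), of 35 ribosome assembly genes 1 rose and 5 fell (0.04), and of 15 mTOR signalling genes 2 rose and 3 fell (0.03). Of 76 mitochondrial ribosomal proteins 15 rose and 1 fell (0.23), and of 86 nuclear subunits of the respiratory chain 30 rose and 1 fell (0.37). With nicotinamide, Fau and Gnb2l1 fell, as did 4 of the 22 TOP genes, 2 of the 76 mitochondrial ribosomal proteins and 14 of the 86 respiratory subunits, of which 1 rose. Of the initiation factors 5 rose and 2 fell, and of the assembly genes 4 rose. None of these genes was called within block 3 in either comparison by limma.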

How the data were processed

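The authors deposited 1 table of normalised read signal per gene for 61 libraries. Per the submitters' processing notes, TopHat2 2.0.7, Bowtie2 2.0.6 and HTSeq were used with build mm10; the scaling is not given in the sources used here. Values were whole reads times 1 factor per library (100% of values within 0.05 of a step), so edgeR and DESeq2 were run on the recovered reads as alternatives. Of 15171 entries, 22 with date-like names were left out. The main test was limma 3.58.1 (R 4.3.3, trend and robust variance) on log2(value + 1), on the groups compared only, for genes that reached 1 in a number of libraries equal to the smaller group, with Benjamini-Hochberg adjustment at 0.05. edgeR was 4.0.16 and DESeq2 1.42.0. The script was tested on simulated data. Table columns name groups, not single samples, so library numbers are those of the columns. Counting error limits low genes, and near-identical copies can share reads. Gene positions and lengths are from GENCODE M21 (GRCm38), matched for 79 members.

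Genes named with full statistics were the members called, or the 3 largest changes in each direction where over 6 were called, or the 2 with the smallest p where none was. Members by role and second copies were named besides. Members and lists were chosen with earlier results of these data known. Alternatives were other pseudocounts (0.25 and 5), no filter, total-read scaling, the count tests, block as covariate, block 3 alone and leaving out each library. Fits without block 1 or 2 or within them were chosen after seeing the data. Results for some genes are not reported here.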

Additional observations from a re-analysis of the deposited data

Results flagged for a closer look

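In groups of 4 to 10 libraries, the library at one end of a group was tested by Dixon's criterion for the 20 named members and the family mean in 4 groups each. It stood apart in 15 of 84 such tests, all for single members, where chance gives about 1 in 20. In DBA/2J at 4 months, a highest library stood apart for Rpl22l1 (8.31, next 6.30), Rpl32 (41.8, next 30.5), Rps19bp1 (5.54, next 4.08), Rps2 (86.5, next 63.6), Rps23 (78.3, next 63.8) and Rps4y2 (2.93, next 1.46), and a lowest for Rpl5 (59.8, next 92.9). In D2-Gpnmb+ at 4 months, the highest stood apart for Rpl13a (61.9, next 44.5) and Rps25 (141, next 95.9), and the lowest for Rpl7l1 (9.25, next 12.7). In D2-Gpnmb+ at 9 months, the highest stood apart for Rplp0 (37.9, next 23.5), Rps2 (96.2, next 64.4) and Rps27l (7.73, next 3.97). With nicotinamide, the highest stood apart for Rpl36al (24.5, next 21.4) and the lowest for Rpl7l1 (9.03, next 11.7).

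The change with age differed between the strains, by the interaction term in limma, for 7 members: Rps21 (1.58, adjusted p = 0.00474), Rps27a (1.24, adjusted p = 0.0202), Rpl32 (1.41), Rps28 (1.27), Rpl41 (1.04) and Rps16 (1.05), each of these 4 with an adjusted p of 0.0464, and Rps19 (1.16, adjusted p = 0.0483). Within block 3 none of the 7 was called, and without block 2 only Rps21 was.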

How the results depend on the processing

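Of the counts and medians reported for the members, 470 values under alternatives stayed close, 97 moved and 9 changed sign. A median counted as close if it moved by less than the SD of the family mean within groups, and a count within a fixed ratio. The blocks widen that SD, so shifts with block can count as close. Examples are nicotinamide (−0.55, and −0.03 in block 3) and strain at 9 months (0.66, and 0.31 with block as a covariate). Of values for single named members, 3444 stayed on their side of the threshold, 236 fell short of it and 61 newly passed. Another 6 changed sign with a call in at least 1 of the fits compared. Changes of sign without a call in either fit are counted among the 3444. Fits without block 1 or 2 or within block 1 were chosen after seeing the data, and the cause of each change below was not tested.

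By tool, the number of members called was 10 with DESeq2 for strain at 4 months, 1 with edgeR and 42 with DESeq2 for strain at 9 months, 3 and 6 for age in D2-Gpnmb+, 44 with DESeq2 for the interaction, and 44 and 50 with edgeR and DESeq2 for nicotinamide. Scaled to total reads, it was 0 for strain at 4 months and 4 for the interaction, and the medians became 0.0091 for strain at 4 months, 0.13 for age in D2-Gpnmb+ and 0.17 for strain at 9 months within block 3. That scaling moved the median of all genes to 0.24, 0.31 and 0.20 in these, so that relative to all genes the members stood at −0.23, −0.18 and −0.023.

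Block 3 alone gave 0 calls for age in DBA/2J (median 0.14), the interaction (0.18) and nicotinamide, and a median of −0.056 for strain at 9 months. Block as a covariate gave 0, 1 and 0 calls for age in DBA/2J (median 0.14), the interaction and nicotinamide. For age in DBA/2J and nicotinamide the difference in that fit rests on the block 3 libraries alone, so it is no separate check. Without block 2, calls were 11 for age in DBA/2J (median 0.025), 12 for age in D2-Gpnmb+, 1 for the interaction (0.32) and 9 for nicotinamide (0.076), and the median for strain at 9 months was 0.087. Without block 1 calls were 37 for the interaction and 69 for nicotinamide, and block 1 alone gave 1 for strain at 9 months. With age in DBA/2J, Rpl36al changed sign without block 2 (−0.059) and Rps19bp1 in block 3 and with the covariate (−0.42). With nicotinamide, Rps6 was 0.53 without block 2 and Rps19bp1 0.26 in block 3 and with the covariate.

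Leaving out 1 library gave 0 to 10 calls for strain at 4 months, 0 to 1 for strain at 9 months (1 without D2-Gpnmb+ library 9 or DBA/2J library 27 or 28), 48 to 60 for age in DBA/2J, 0 to 9 for age in D2-Gpnmb+, 1 to 26 for the interaction and 18 to 35 for nicotinamide. Within block 3 the medians ranged from −0.22 to 0.057 for strain at 9 months, from −0.16 to 0.089 for age in D2-Gpnmb+, from −0.13 to 0.089 for nicotinamide, from 0.024 (without DBA/2J library 26) to 0.23 (without 27) for age in DBA/2J, and from 0.046 (without D2-Gpnmb+ library 14) to 0.30 (without 15) for the interaction. No paired analysis was possible because the table's columns carry no number that ties a library of one group to a library of another.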
